A study of Gallus gallus with 300 samples.

Results

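The ciliary and centriolar genes described here were read in single cells of the chicken utricle, a gravity-sensing organ of the vestibular inner ear. Members were the gene symbols that begin with DNAH, DNAI, DNAL, DYNC2, IFT, BBS, CFAP, TEKT, RSPH, SPAG, NPHP or CEP in the form the naming of each family gives, plus IQCA1 and ARMC2. Of 13631 gene symbols, those that reached 10 CPM (counts scaled to the total of the cell) in at least 5 of the 300 cells were measured, which left out 7 of the matching symbols. By role, 49 measured members belonged to the motile axoneme (DNAH, DNAI, DNAL, RSPH, CFAP and TEKT genes, SPAG1, SPAG6, SPAG16, SPAG17, IQCA1 and ARMC2), 23 to transport (IFT, BBS and DYNC2 genes), 3 to the transition zone (NPHP genes) and 33 to the centrosome and basal body (CEP genes). SPAG9, which encodes a scaffold protein of JNK signalling and not an axonemal part, stood alone. The 7 symbols that were not measured were DNAH11, seen at 10 CPM in 4 cells, BBS1, CFAP65 and SPAG8 in 2 cells each, TEKT3 in 1 cell, and SPAG4 and SPAG5 in none of the 300 cells. Just inside that bound lay BBS10, CEP192, CEP350L, CEP57L1 and DNAH3, each in 5 cells.

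The kinocilium is the true cilium of a hair cell, an axoneme of microtubule doublets that stands beside the actin-based stereocilia and grows from a basal body derived from a centriole. Dynein arms, radial spokes, tektins and the central apparatus are the parts that make an axoneme bend, whereas intraflagellar transport (IFT) trains, the IFT dynein encoded by DYNC2 genes and the BBSome carry cargo along any cilium, motile or not. Supporting cells of the same epithelium carry a primary cilium, which lacks the parts for motility, so that transport genes are shared by both cell types. ATOH1 encodes the transcription factor that starts hair cell differentiation, and birds form new hair cells in the utricle throughout life. OCM encodes oncomodulin, a parvalbumin-type calcium-binding protein that marks a subset of avian utricular hair cells.

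All cells came from wild type chickens at posthatch day 7, and no treatment, genotype or animal distinguishes one cell from another in the labels. Thermolysin served to peel the epithelia off the stroma, 4 to 8 of them were pooled per experiment, and single cells were sorted into wells in 2 batches of 270 cells. Each cell has its own full-length library made after 22 cycles of PCR without molecular identifiers, and the cells carry plate numbers from 2 to 6. Since all cells form 1 group and animals are not identified in the labels, no test between groups of animals was possible, and every value below is a description of these cells, with the standard deviation (SD) over the 5 plate means as its error. Whether plates are separate experiments is not stated.

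Cells under 1000 genes or 50000 counts were removed, 24 of 300, all of them by the bound on genes. Those kept had a median of 406691 counts and 2862 genes. Cells were classed by clustering on genes other than the members and marker lists, and clusters were named from hair cell and supporting cell markers. The hair cell-like class held 65.9% of the kept cells (34, 38, 32, 41 and 37 on plates 2 to 6) and the supporting cell-like class 94 cells, or 34.1% (15, 12, 29, 22 and 16). All 15 measured hair cell markers were higher in the hair cell-like class, and 13 of 14 measured supporting cell markers were higher in the supporting cell-like class. The summed level of the hair cell markers ranged over plates from 16723 to 20474 CPM in hair cell-like cells and from 1223 to 2216 CPM in supporting cell-like cells. TMC2, a hair cell channel gene, was the hair cell marker at 0 counts in the latter. Depth moved with the classes, with medians of 3469 genes per hair cell-like and 1797.5 per supporting cell-like cell, or 2938 and 1606.5 once each had been thinned to 50000 counts. Glial markers (3 of 7 measured) were also lower in hair cell-like cells, where their sum averaged 67.5 CPM against 775 CPM in supporting cell-like cells, of which 1 cell alone held 29160.3 CPM. Immune markers (3 of 6 measured) summed to 33.7 and 354 CPM, and no erythroid marker was measured. The part of gene number, of depth and of these other markers in the results below was not tested.

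By the ratio of mean CPM, motile axoneme genes were the members that most often stood higher in hair cell-like than in supporting cell-like cells, although the order of these shares turned on mean log2(CPM + 1), given with the transport genes. A member is called higher or lower at a log2 ratio of mean CPM of at least 1 in size, with 1 CPM added to each mean. By that rule 33 of 49 motile genes were higher and 2 were lower, with a median log2 ratio of 1.69 (SD over plates 0.61). Of the 23 transport genes, 5 were higher and 1 was lower, with a median of 0.31 (SD 0.47), and of the 33 centrosome and basal body genes 19 were higher and 6 lower, with a median of 1.11 (SD 0.38). Among the 5394 measured genes that took no part in the clustering, 27.5% were higher and 25.1% were lower, and their median log2 ratio was 0.08. Plate medians of the motile genes ranged from 1.65 to 3.29 and those of the transport genes from 0.24 to 1.42, so the ranges did not overlap. The share of transport genes called higher lay near the background share, and no more than that is read from it.

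**Figure D1:**
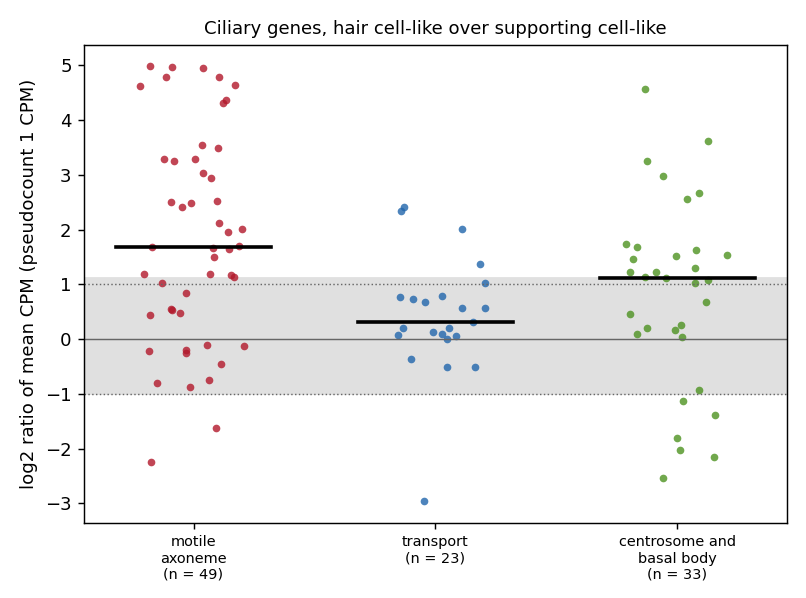
Log2 ratio of mean CPM, hair cell-like over supporting cell-like, for each measured member (points) by role, with the median of each role as a black bar. The grey band spans the interquartile range of 5394 other genes and dotted lines mark the bound of 1 in size, and the medians of 1.69 for motile and 0.31 for transport genes sit apart.

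Among the dynein arm genes (DNAH, DNAI and DNAL), 9 of 13 were higher and 1 was lower, with a median log2 ratio of 1.70. DNAI1, an intermediate chain of the outer dynein arm, averaged 123.5, 120.1, 203.8, 220.5 and 197.5 CPM in hair cell-like cells on plates 2 to 6. In supporting cell-like cells it averaged 5.69, 0, 14.9, 2.03 and 0 CPM. Every hair cell-like plate lay above every supporting cell-like plate, and the log2 ratio of DNAI1 was 4.98 (5.82 without plate 4, after the cells were clustered again, as for all values without a plate unless the classes are said to be kept). DNAI1 was seen at 10 CPM or more in 61.5% of hair cell-like cells and 5.32% of supporting cell-like cells. DNAI2, its partner intermediate chain, averaged 193.8 ± 28.6 CPM (SD, n = 5 plates) and 24.4 ± 20.5 CPM.

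DNAH5, a heavy chain of the outer arm, averaged 251.1, 127.9, 251.2, 236.6 and 435 CPM by plate in hair cell-like cells and 0, 0, 0, 0 and 60.5 CPM in supporting cell-like cells. Its plates did not overlap either, and its log2 ratio of 4.32 became 7.77 without plate 6, the only plate with DNAH5 signal in supporting cell-like cells. DNAH5 varied widely within the hair cell-like class, where the median cell held 13.9 CPM, the upper quartile 304 CPM and the highest cell 9069 CPM. DNAH10, a heavy chain of the inner arm, averaged 42.4, 80.02, 45.5, 48.7 and 108.6 CPM against 5.19, 0, 3.02, 0 and 0 CPM, with a log2 ratio of 4.64 (5.34 without plate 2). DNAH12, another inner arm heavy chain, was at 0 counts in all 94 supporting cell-like cells, which allows a share of up to 3.19% of cells with a count, a limit that at the lower depth of these cells says nothing of cells that express the gene. By counts alone the fold bound for DNAH12 was 313, but only 10 hair cell-like cells reached 10 CPM. Of its summed CPM in that class, 1 cell held 56.8%. Such bounds, here and below, rest on summed counts and do not cover which cells were drawn. They are therefore not lower limits of the difference between the classes. DNAH12 and the other members at 0 counts in supporting cell-like cells met the bound of 5 cells only through hair cell-like cells.

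DNALI1 and DNAH7 were among the dynein genes that departed from that pattern. DNALI1, the light intermediate chain of the inner arm, averaged 41.7, 69.8, 31.3, 56.3 and 34.4 CPM in hair cell-like cells and 51.1, 16.98, 20.3, 26.9 and 135.5 CPM in supporting cell-like cells. The plates overlapped and the log2 ratio was −0.10, although it reached 10 CPM in 57.1% and 27.7% of cells. A single supporting cell-like cell held 30.4% of its summed CPM there, and on mean log2(CPM + 1), a scale that gives rare high cells less weight, the difference was 1.62. DNAH7, an inner arm heavy chain, was the lower one, with 3.35 ± 6.63 CPM (SD, n = 5 plates) against 12.4 ± 15.7 CPM and a log2 ratio of −1.62, which became −0.75 without plate 3 and −2.77 without plate 2. Cells with at least 10 CPM of DNAH7 were rare, 2.20% of hair cell-like cells, compared with 3.19% of supporting cell-like cells.

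All 5 measured radial spoke genes were higher, with a median log2 ratio of 2.53. RSPH1, a radial spoke head gene, averaged 724, 639.9, 628, 599 and 808 CPM by plate in hair cell-like cells and 0, 17.99, 7.08, 0 and 93.6 CPM in supporting cell-like cells. It separated the classes on every plate, with a log2 ratio of 4.78, and it was the motile gene found in the most hair cell-like cells, 90.1% (exact 95% binomial interval 84.8 to 94.03%) against 4.26% (1.17 to 10.5%). In single hair cell-like cells the RSPH1 quartiles were 291.5, 572 and 950 CPM, and the highest cell held 3263 CPM. Of the 4 supporting cell-like cells with RSPH1, 1 on plate 6 held 1148 CPM together with a hair cell marker score of 0.985, on a scale from 0 at the supporting cell-like median to 1 at the hair cell-like median. That cell joined the hair cell-like class when plate 2, 3, 4 or 5 was left out and the cells were clustered again, and the RSPH1 log2 ratio was then 5.68 to 6.48 over the 5 plates left out in turn, against 4.45 to 6.48 with the classes kept. RSPH14 was at 0 counts in supporting cell-like cells, with a fold bound of 91.5 by counts alone, and only 4.4% of hair cell-like cells reached 10 CPM. RSPH9, another spoke head gene, averaged 194.3 and 85.1 CPM.

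**Figure D2:**
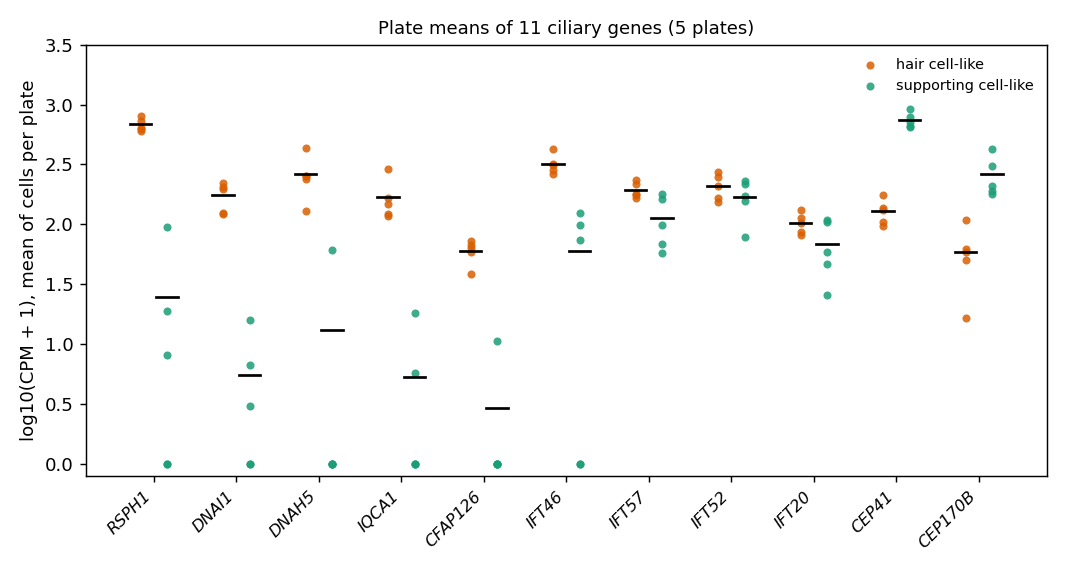
Mean CPM on each of the 5 plates, as log10(CPM + 1), for 11 members in both classes, with a bar at the mean of the plate means. RSPH1, DNAI1, DNAH5, IQCA1, CFAP126 and IFT46 separate the classes on all plates, IFT57, IFT20 and IFT52 overlap, and CEP41 and CEP170B lie the other way.

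CFAP genes, named for cilia and flagella associated proteins, included 14 of 22 that were higher and none that was lower, with a median log2 ratio of 2.06. CFAP126, the flattop protein of basal bodies and axonemes, averaged 58.2, 66.7, 37.3, 62.8 and 71.8 CPM in hair cell-like cells and 0, 9.58, 0, 0 and 0 CPM in supporting cell-like cells. Only plate 3 carried CFAP126 in the latter, and the log2 ratio of 4.37 was 5.86 without it. CFAP126 reached 10 CPM in 78.6% of hair cell-like cells, compared with 2.13% of supporting cell-like cells. CFAP100, whose Chlamydomonas counterpart modifies the inner dynein arms, and CFAP77 were at 0 counts in supporting cell-like cells. By counts alone their fold bounds were 280.1 and 249.5. CFAP161, a protein inside the doublet microtubules, averaged 40.6 ± 25.3 and 2.58 ± 3.60 CPM (SD, n = 5 plates), with a log2 ratio of 3.54. CFAP52 (392 and 39.02 CPM) and CFAP43 (253.8 and 21.6 CPM) were also among those that did not overlap.

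Of the CFAP genes 8 were not called. CFAP20, a protein of the doublet microtubules also found in cells without motile cilia, averaged 226.8, 295.9, 223.3, 232.7 and 268.6 CPM in hair cell-like cells and 85.1, 270.3, 182.7, 233.2 and 145.4 CPM in supporting cell-like cells, with overlapping plates and a log2 ratio of 0.44. CFAP54, a part of the central apparatus, averaged 78.4 ± 37.2 and 93.8 ± 72.3 CPM (SD, n = 5 plates), but was seen at 10 CPM in 53 cells of the hair cell-like class and 9 of the other, and 1 supporting cell-like cell held 42.4% of the sum. SPAG6, which belongs to the central apparatus as well, gave 53.5 ± 25.6 and 73.4 ± 51.8 CPM with 57 and 13 cells. In both cases the gene was found in a smaller share of supporting cell-like cells and at high level in a few of them.

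IQCA1, a subunit of the nexin-dynein regulatory complex, averaged 120.5, 117.2, 146.9, 163.5 and 287.6 CPM in hair cell-like cells and 0, 17.05, 4.70, 0 and 0 CPM in supporting cell-like cells. No plate overlapped, plate 6 was highest among hair cell-like cells, and the log2 ratio was 4.97 (6.36 without plate 3). ARMC2, an armadillo repeat protein that mouse sperm need to build their axoneme, gave 52.3, 24.5, 81.5, 42.99 and 45.96 CPM and 147.9, 0, 10.1, 13.8 and 116.9 CPM. Supporting cell-like plates 2 and 6 lay above every hair cell-like plate and the others below, the log2 ratio was −0.22, and without each plate in turn it ranged from −0.73 to 0.46 with the classes kept. Clustering the cells again gave 0.16 to 2.27, since the plate 6 cell described above then changed class when plate 2, 3, 4 or 5 was left out. ARMC2 reached 10 CPM in 30.2% and 10.6% of cells. Of the 3 measured tektins, which form filaments along the doublets, TEKT1 (log2 ratio 1.14) and TEKT4 (1.18) were higher. TEKT2 was lower, with 10.1 ± 5.22 against 51.5 ± 49.8 CPM (SD, n = 5 plates) and a log2 ratio of −2.24, yet the share of cells at 10 CPM was close in the classes, 9.34% and 9.57%. Only 9 supporting cell-like cells reached 10 CPM of TEKT2, and 1 cell held 35.6% of its summed CPM there. On mean log2(CPM + 1) the TEKT2 difference was −0.16.

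Across the motile genes, 13 of 49 had plate means that did not overlap, all of them higher in hair cell-like cells, where 13.1% of the background genes did so in that direction and 6.93% in the other. After thinning to 50000 counts, 46 of 49 motile genes were found in a larger share of hair cell-like than of supporting cell-like cells, as were 4061 of the 5394 background genes. The median motile gene was then present in 29.7% of the former and 5.32% of the latter. Leaving out the 9 supporting cell-like cells of marker score above 0.25 moved the median log2 ratio of the motile genes to 2.02.

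Transport genes were present in both classes. Of the 14 IFT genes 5 were higher and none was lower, with a median log2 ratio of 0.68. None of the 7 BBS genes and none of the 2 DYNC2 genes was higher. Of the background genes 27.5% were higher and 25.1% lower, and no difference between these families is read from such small counts. IFT46, a core subunit of the IFT-B complex, averaged 262.1, 421, 281.1, 316 and 310.2 CPM in hair cell-like cells and 123.4, 0, 72.6, 97.6 and 0 CPM in supporting cell-like cells. Its plates did not overlap, its log2 ratio was 2.42, and it was found at 10 CPM in 73.1% and 15.96% of cells. IFT172, a peripheral IFT-B subunit, gave 46.95, 7.63, 56.2, 55.4 and 40.4 CPM and 24.04, 1.29, 6.10, 5.38 and 0 CPM, with overlapping plates and a log2 ratio of 2.34 that was 3.28 without plate 2. IFT22, a Rab-like GTPase of IFT-B, averaged 157.7 ± 33.7 and 38.5 ± 21.4 CPM (SD, n = 5 plates), a log2 ratio of 2.01 without overlap (2.76 without plate 5, or 2.23 with the classes kept).

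IFT43, a subunit of the IFT-A complex that carries membrane proteins and serves return transport, averaged 82.3, 120.4, 82.9, 99.7 and 108.4 CPM in hair cell-like cells and 62.7, 44.5, 53.6, 27.5 and 0 CPM in supporting cell-like cells, with a log2 ratio of 1.37. IFT88, a core IFT-B subunit, averaged 85.5 ± 45.05 and 41.3 ± 38.8 CPM (SD, n = 5 plates), and its log2 ratio of 1.03 was 0.64, 0.66 and 0.97 without plate 5, 3 or 6 and 1.67 without plate 4. In cells of at least 2000 genes and 100000 counts the IFT88 ratio was −0.76. The other IFT-A genes measured, IFT122 (log2 ratio −0.50) and IFT140 (0.20), were not called.

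IFT57, an IFT-B subunit, was a common transport gene in both classes, with 232.8, 179.4, 175.7, 215.03 and 164.2 CPM by plate in hair cell-like cells and 177.8, 56.97, 97.8, 162.9 and 67.9 CPM in supporting cell-like cells. It was higher on every plate and its plates overlapped, with a log2 ratio of 0.77. IFT20, the IFT subunit that also sits at the Golgi, gave 79.8, 129.8, 110.98, 86.001 and 100.7 CPM and 108.02, 45.6, 57.7, 24.5 and 102.8 CPM, a log2 ratio of 0.58, and was the transport gene seen in the most supporting cell-like cells, 43.6% (exact 95% interval 33.4 to 54.2%). IFT52, another core IFT-B subunit, averaged 209.7 ± 52.8 and 169.01 ± 59.1 CPM (SD, n = 5 plates). IFT27, a small GTPase of IFT-B, averaged 77.5 ± 38.8 and 44.4 ± 28.5 CPM, with a log2 ratio of 0.79 that lay between 0.47 and 1.14 without each plate in turn with the classes kept, and between 1.13 and 1.89 when the cells were clustered again. DYNC2H1, the heavy chain of the IFT dynein, gave 91.9 and 86.2 CPM, and DYNC2LI1, its light intermediate chain, 49.3 and 30.3 CPM.

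Among BBS genes, which encode the BBSome and the chaperonin-like proteins that assemble it, BBS5 had the highest log2 ratio at 0.73, from 130.5 ± 35.3 and 78.3 ± 38.8 CPM (SD, n = 5 plates). BBS2, BBS4, BBS7, BBS9 and BBS12 lay between −0.51 and 0.14. BBS10, a chaperonin-like member, was called lower at −2.96, but 1 supporting cell-like cell on plate 3 held 99.8% of its summed CPM there, and the ratio was 1.14 without that plate.

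The share of cells gave another view of the transport genes. After thinning, all 23 were found in a larger share of hair cell-like cells, as were most background genes, by the count given with the motile genes. The median transport gene was present in 34.6% of hair cell-like cells, against 16% of supporting cell-like cells. On mean log2(CPM + 1) the median difference of the transport genes was 1.34 with 17 of 23 past 1, that of the motile genes 1.49 with 31 of 49, and that of the centrosome and basal body genes 0.58 with 8 of 33. On that scale the median of the background genes was 0.42, a shift of 0.34 from the ratio of means, and 30.3% of them were higher and 6.62% lower. So on that scale the share past 1 was larger for transport than for motile genes, the reverse of the order by the ratio of means. With size factors in place of CPM the background median shifted by 0.24 and the medians were 1.86 for motile, 0.54 for transport and 1.06 for centrosome and basal body genes.

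Centrosome and basal body genes went both ways. CEP131, a protein of centriolar satellites, averaged 22.99, 16.1, 25.8, 29.5 and 35.1 CPM in hair cell-like cells, where 22.5% of cells reached 10 CPM. Supporting cell-like cells held 2 counts in all against 1871, a ratio of pooled CPM of 374 with an exact 95% counting interval from 103.3 to 3088. CEP170, which sits on the appendages of the mother centriole, averaged 81.4 ± 17.1 and 27.7 ± 30.1 CPM (SD, n = 5 plates), with a log2 ratio of 1.52 (2.25 without plate 5). CEP19, a mother centriole protein that takes part in the start of ciliogenesis, gave a log2 ratio of 1.53 (2.46 without plate 3). CEP164, a protein of the distal appendages that dock the basal body, averaged 52.9, 33.2, 22.9, 85.8 and 31.5 and 13.4, 13.9, 13.8, 46.5 and 6.55 CPM by plate, with overlap and a log2 ratio of 1.22. CEP350, a large centrosomal protein, had a log2 ratio of 1.22 and was the centrosomal member found in the most hair cell-like cells, 63.7%, against 23.4% in the other class. CEP192, which recruits pericentriolar material, was at 0 counts in supporting cell-like cells, where up to 3.19% of cells could still hold a count. Only 5 hair cell-like cells reached 10 CPM, so no difference is read from its fold bound of 56.5 by counts alone.

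CEP41 stood on the other side. This ciliary protein, known for its part in tubulin glutamylation, averaged 95.1, 103.5, 131.1, 134.5 and 174.4 CPM in hair cell-like cells and 708, 650.1, 789, 665 and 919 CPM in supporting cell-like cells. All supporting cell-like plates lay above all hair cell-like plates, the log2 ratio was −2.54, and it stayed between −2.64 and −2.51 when each plate was left out in turn. The median supporting cell-like cell held 390.5 CPM and the median hair cell-like cell 0. CEP170B, a relative of CEP170, gave 15.4, 61.3, 57.1, 49.4 and 106.6 CPM and 190.3, 177.2, 206.2, 421 and 304 CPM, a log2 ratio of −2.14 without overlap. So CEP170 and CEP170B, which are paralogs, were called in opposite directions.

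CEP63, which works with CEP152 in centriole duplication, was lower on all plates, at 5.90 ± 5.52 and 27.03 ± 12.97 CPM (SD, n = 5 plates), with a log2 ratio of −2.02. CEP152 itself had a log2 ratio of −1.38, or −0.57 without plate 5 (−0.77 with the classes kept). CEP68, a protein of the linker between centrioles, was at −1.13, or −0.87 without plate 5. CEP76, which restrains centriole duplication, was at −1.81 (−1.11 without plate 6), from 10 cells of the hair cell-like class and 2 of the other at 10 CPM. SPAG9 was lower at −1.05, but not past the bound without plate 2, 4 or 5 (−0.94, −0.88 and −0.92). For the centrosome and basal body genes as a whole, 4 were higher and 2 lower without overlap of plates, beside 13.1% and 6.93% of the background genes.

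Some values carry a doubt about which gene they belong to. In the reference gene table, which held all but 2 of the measured members, the spans of 33 overlap another protein-coding gene there. Among the genes named in the text these are DNAH7 with LOC768589, DNAH12 with ASB14, RSPH14 with RAB36, GNAZ and SLC5A1, CFAP43 with SFR1, CFAP100 with KLF15, CFAP161 with LOC415472, IQCA1 with CXCR7, and TEKT1 with FBXO39. Of the transport genes they are IFT20 with TNFAIP1, IFT27 with CACNG2, IFT57 with HHLA2, IFT140 with TMEM204 and TELO2, DYNC2LI1 with ABCG5, BBS9 with NT5C3A and BBS10 with OSBPL8. Of the centrosome genes they are CEP19 with PIGX, CEP68 with SLC1A4 and CEP85L with PLN, and no source used here states that counting used strand. DNAH5 and DNAH5L, and CEP350 and CEP350L, may share reads, since the names mark near copies.

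**Figure D3:**
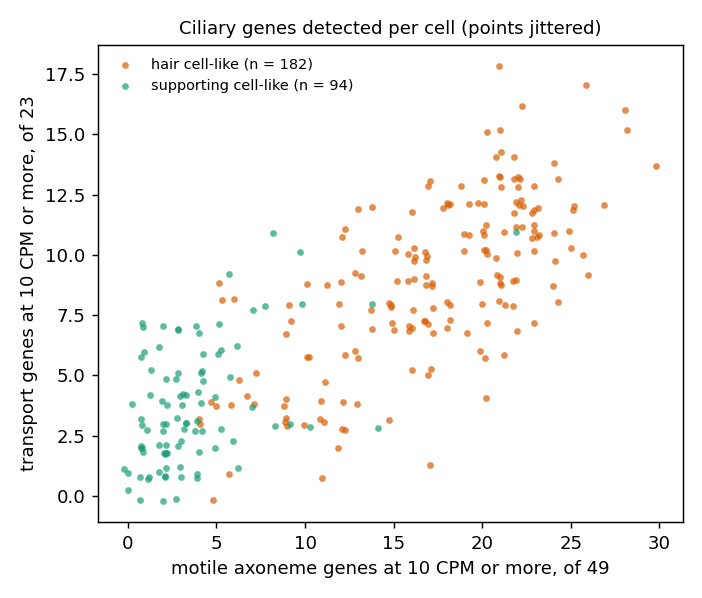
Number of motile axoneme genes (of 49, x axis) and of transport genes (of 23, y axis) at 10 CPM or more in each kept cell, with points moved slightly apart. Hair cell-like cells centre on 18 motile and 9 transport genes and supporting cell-like cells on 3 and 3, and the classes overlap. Of the hair cell-like cells 22 had fewer than 10 motile genes, and of the supporting cell-like cells 6 had 10 or more.

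Counted within single cells, the motile genes set the classes further apart than the transport genes did. The median hair cell-like cell expressed 18 of 49 motile genes at 10 CPM or more (range 4 to 30), and the median supporting cell-like cell 3 (range 0 to 22). For transport genes the medians were 9 of 23 (0 to 18) and 3 (0 to 11), and for centrosome and basal body genes 7 and 3 of 33. At 4 motile genes or fewer there were 71 supporting cell-like and 2 hair cell-like cells, and 6 supporting cell-like cells had 10 or more. The supporting cell-like cell with the most motile genes, 22 with 11 transport genes and 205.2 CPM of RSPH1, lay on plate 4 at a marker score of 0.30 and held no OCM. The next, with 14 motile genes and 215.9 CPM of RSPH1, had a marker score of 0.025. On the other side, 18 hair cell-like cells lacked RSPH1 at 10 CPM and 22 had fewer than 10 motile genes.

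These numbers also followed the number of genes found in a cell. Among hair cell-like cells thinned to 50000 counts, the number of motile genes and the number of all genes found went together (Pearson r = 0.83, Spearman rho = 0.79), as did transport genes and all genes (0.82 and 0.79). Motile and transport genes correlated less closely with each other (0.69 and 0.66). These are descriptions over cells that share plates, and the members are among the genes counted. Hair cell-like clusters 7 and 8, of 10 and 14 cells with medians of 1420.5 and 1717.5 genes, held a median of 6 and 11 motile genes, and without them the median log2 ratio of the motile genes was 1.38.

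Ciliary genes outside the naming rule were counted from lists of the same roles, against the background of 27.5% higher and 25.1% lower. Of 62 other measured motile cilium genes, 40 were higher and 4 lower, with a median log2 ratio of 1.87. Plate means did not overlap for 30 of the 62 in the higher direction, where 13.1% of the background genes did so. HYDIN, a central apparatus protein, averaged 162.96, 157.1, 300.3, 75.2 and 285.4 CPM in hair cell-like cells against 3 counts in all in supporting cell-like cells, a ratio of pooled CPM of 1847 (exact 95% counting interval 632 to 8957). As for CEP131, that interval covers only the counting of amplified reads. EFHC2 and RIBC2, proteins inside the doublets, had log2 ratios of 5.79 and 5.39. FOXJ1, the transcription factor that switches on motile cilium genes, averaged 55.8, 52.4, 51.8, 62.4 and 33.1 CPM in hair cell-like cells and 0, 5.68, 17.6, 26.5 and 6.81 CPM in supporting cell-like cells, did not overlap and had a log2 ratio of 2.08. TTLL10, a tubulin-modifying enzyme of the same list, was lower, with 2.57, 0, 0.133, 0.148 and 0 CPM against 253.8, 242.2, 176.9, 190.1 and 33.96 CPM and a log2 ratio of −6.84.

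Of 27 other transport genes, 9 were higher and 1 lower, with a median of 0.43. WDR60, an intermediate chain of the IFT dynein, averaged 238.4 ± 52.9 and 18.6 ± 19.1 CPM (SD, n = 5 plates), without overlap. ARL6, the GTPase that recruits the BBSome and is known as BBS3 in human, had a log2 ratio of 2.69 although no gene with a BBS symbol was higher. WDR35, an IFT-A subunit, was lower at −1.46. Of 19 other transition zone genes 6 were higher and 5 lower (median 0.04), and of 27 other centriole and basal body genes 6 were higher and 4 lower (median 0.04), beside 19 and 6 of the 33 CEP genes (median 1.11). CDK5RAP2, a protein of the pericentriolar material, was found in 92.9% of hair cell-like cells, compared with 26.6% of supporting cell-like cells, with a log2 ratio of 2.48.

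Within the hair cell-like class, cells were divided by OCM at 1000 CPM into 110 OCM-high and 72 OCM-low cells, and 28 cells lay between 500 and 2000 CPM. Of the 49 motile genes 4 were higher and 5 lower in OCM-high cells, with a median log2 ratio of −0.16 (SD over plates 0.28). None of the 23 transport genes was called in either direction, with a median of −0.28 (SD 0.19), and of the 33 centrosome and basal body genes 8 were higher and 2 lower, with a median of 0.16 (SD 0.33). Plate medians of the centrosome and basal body genes lay above that value on every plate but plate 2, as given with the flagged results. Over 10676 genes other than OCM, 15.1% were higher and 12.3% lower, with a median of 0.05. Gene numbers were close, with medians of 3458 and 3489 genes, and 6 of 7 measured type I hair cell markers, OCM among them, were higher in OCM-high cells. Supporting cell markers summed to between 884 and 1759 CPM by plate in OCM-high and between 1091 and 4501 CPM in OCM-low cells, and glial markers to between 12.6 and 45.8 and between 47.1 and 238.5 CPM, and their part was not tested.

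The RSPH1 level was alike in both ranges, with 743, 611, 517, 624 and 893 CPM by plate in OCM-high cells and 701, 684, 754, 551 and 653 CPM in OCM-low cells, a log2 ratio of 0.02, whose plate values ran from −0.54 to 0.45. Over all hair cell-like cells the number of motile genes after thinning showed little relation to log2 OCM (Pearson r = −0.035, Spearman rho = −0.12). Of measured members, 7 went the same way on all 5 plates and reached 10 CPM in at least 20% of cells of the higher side. Of these, 4 were higher, where 4.69% of all genes were, and 3 lower, where 2.63% were. As shares of the measured members both counts lay near those of all genes. No difference of the members as a set is therefore read from them, and the single genes are given as descriptions. Among the members higher in OCM-high cells on every plate were CEP85L (log2 ratio 0.86), IFT20 (0.62) and CFAP20 (0.59), none of them past the bound of 1. Their size changed with the settings, from 0.11 to 1.72 for CEP85L, 0.17 to 1.10 for IFT20 and 0.12 to 1.13 for CFAP20. CFAP20 averaged 243.5, 401, 245.3, 253.8 and 293.4 CPM in OCM-high and 205.6, 134.8, 198.4, 192.2 and 222.8 CPM in OCM-low cells, and CEP85L, a centrosomal protein, 187.8, 203.4, 135.4, 173.6 and 144.5 and 90.4, 64.3, 95.4, 91.7 and 122.9 CPM. These were the members whose plates did not overlap in the OCM-high direction, 2 in all, where 2.57% of all genes did so. As a share of the measured members that was no more than among all genes.

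CFAP221, a protein of the central apparatus, was the member that differed most in the OCM-low direction. It averaged 1.96, 0.776, 0, 0 and 0 CPM in OCM-high cells and 63.9, 24.1, 9.33, 22.2 and 186.2 CPM in OCM-low cells. No plate overlapped, as for 0.796% of all genes in that direction, and the log2 ratio was −5.33 (−4.20 without plate 6). CFAP221 reached 10 CPM in 2 of 110 OCM-high cells (exact 95% interval 0.221 to 6.41%) and in 15 of 72 OCM-low cells (12.2 to 32.02%), and 1 cell held 54.6% of the sum of the latter. These intervals treat cells that share plates as independent, so they are not a test between the ranges. CFAP221 thus met the bound of 5 cells only through OCM-low cells, the side where it was higher, and its ratio is given with that limit. DNAI1 (log2 ratio −0.47) and CFAP73 (−0.72), whose Chlamydomonas counterpart acts with that of CFAP100, were also lower on every plate without reaching the bound.

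DNAH12 was found at 10 CPM in 10 OCM-high cells and at 0 counts in the 72 OCM-low cells, with 56.8% of the sum in 1 cell, so it was measured only through OCM-high cells. IQCA1 stood at 125.2 ± 48.6 and 230.4 ± 140.2 CPM (SD, n = 5 plates). WDR60, outside the naming rule, differed most among the transport genes, with 316, 417, 308, 310.1 and 429 CPM in OCM-high and 81.3, 23.3, 48.3, 24.3 and 117.2 CPM in OCM-low cells, a log2 ratio of 2.58 without overlap. TPPP3, a tubulin-binding protein of the motile list, went the other way at −2.57, also without overlap. In all, 6 of the 62 other motile genes were higher and 10 lower, and 2 of the 27 other transport genes were higher and 2 lower. Of all genes 15.1% were higher and 12.3% lower.

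**Figure D4:**
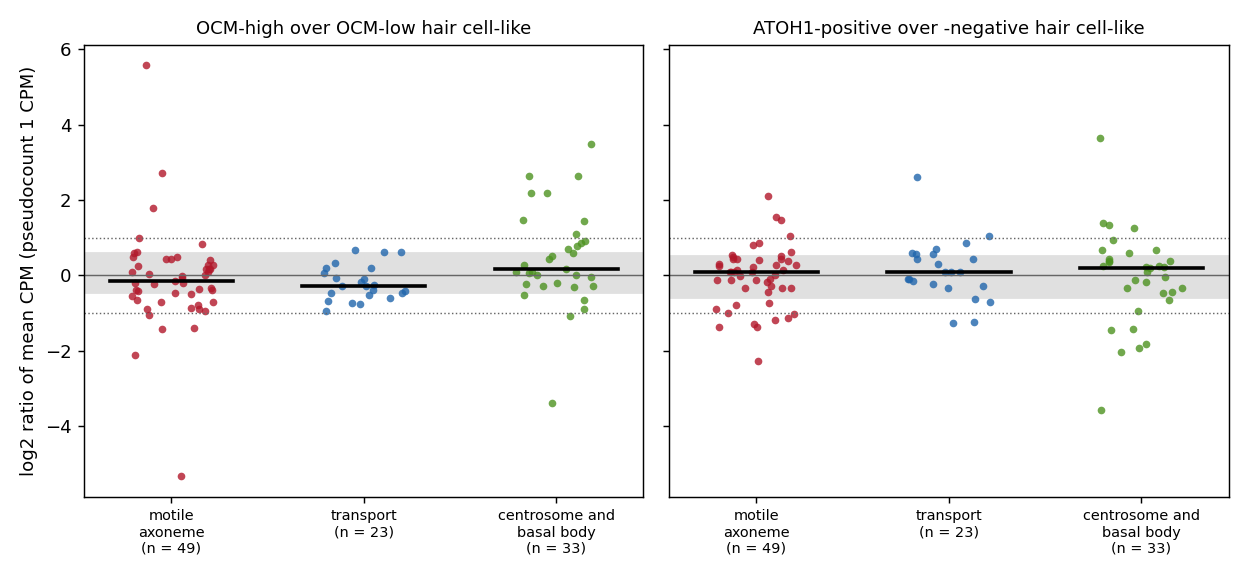
Log2 ratio of mean CPM for each measured member (points) by role, OCM-high over OCM-low and ATOH1-positive over ATOH1-negative hair cell-like cells, with the median of each role as a black bar. Grey bands span the interquartile range of 10676 genes and dotted lines mark 1 in size, and role medians lie near 0 in both, from −0.28 for transport to 0.16 for centrosome genes by OCM.

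By ATOH1 at 10 CPM, 50 hair cell-like cells were positive and the rest negative, and 21 cells lay between 5 and 20 CPM. Of the 49 motile genes 4 were higher and 7 lower in ATOH1-positive cells, with a median log2 ratio of 0.09 (SD over plates 0.12). Of the 23 transport genes 2 were higher and 2 lower (median 0.09, SD 0.27), and of the 33 centrosome and basal body genes 4 were higher and 6 lower (median 0.19, SD 0.43). Over 10676 genes other than ATOH1, 12.7% were higher and 15.7% lower, with a median of −0.04. These counts changed with the scale, since mean log2(CPM + 1) gave 13 motile, 5 transport and 4 centrosome genes higher and none lower. On that scale 12.7% of all genes were higher and 1.79% lower. Cells with OCM under 1000 CPM alone gave 14, 9 and 15 higher and 12, 6 and 10 lower, but only plates 4 and 6 held at least 5 cells of both sides. The shares over all genes in those cells are not given here, so no dependence on OCM is read from these counts. ATOH1-positive cells held more genes, 3773 against 3313.5 in the median cell. In them 9 of 11 measured markers of developing hair cells, ATOH1 included, were higher, 5 of 7 type I markers were lower, and 7 of 14 supporting cell markers were higher, whose sum by plate ran from 1479 to 3653 CPM against 1139 to 3342 CPM. The part of these differences in the values below was not tested. ATOH1 also reached 10 CPM in 12 of 94 supporting cell-like cells.

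Of measured members, 12 went the same way on all 5 plates and reached 10 CPM in at least 20% of cells of the higher side. Of these, 4 were higher, as 3.59% of all genes were, and 8 lower, as 4.22% were. As a share of the measured members the higher count lay near that of all genes, and the lower count above it. No difference of the members as a set is read from such small counts, and the single genes are given as descriptions. The named genes that went the same way on every plate follow, CEP295 apart, which lay under that detection bound. SPAG16, a protein of the central apparatus, averaged 41.1, 26.7, 52.5, 71.8 and 54.1 CPM in ATOH1-positive and 6.01, 14.5, 39.2, 20.8 and 0 CPM in ATOH1-negative cells, with overlap and a log2 ratio of 1.55. With OCM under 1000 CPM alone there were 23 positive and 49 negative cells. Only plates 4 and 6, with at least 5 cells of both sides, entered that ratio, which was −0.25 for SPAG16. CFAP44, which tethers an inner arm dynein in Chlamydomonas, had a log2 ratio of 1.47 that was 0.60 without plate 6. IFT57 averaged 298.4, 262.2, 203.7, 324 and 201.9 CPM and 205.5, 145.7, 164.8, 188.7 and 146.05 CPM, a log2 ratio of 0.60. Among cells with OCM under 1000 CPM, again from plates 4 and 6 only, the IFT57 ratio was −0.25. CEP85L (0.68) and CEP295, a centriole assembly protein (1.34), were higher without overlap of plates, 2 in all, where 1.36% of all genes did so. As a share of the measured members that was near the share of all genes.

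IFT43 and SPAG1 were the members lower without overlap, where 2.28% of all genes were, so their share of the measured members was no larger. IFT43 averaged 35.1, 48.99, 36.3, 50.1 and 75.6 CPM in ATOH1-positive and 101.96, 149.6, 101.2, 111.7 and 124.2 CPM in ATOH1-negative cells, with a log2 ratio of −1.24. All positive plates lay below all negative plates, although the gene reached 10 CPM in 50% and 59.8% of cells. SPAG1, a factor of dynein arm assembly, gave 19.8, 66.7, 59.1, 76.7 and 64.4 CPM and 76.8, 108.5, 158.7, 83.5 and 147.6 CPM, a log2 ratio of −0.99. IQCA1 (−1.03), CFAP73 (−0.90) and CEP131 (−1.46, or −2.21 without plate 6) were lower on each plate as well. On mean log2(CPM + 1) CFAP73 was at 0.13, and at an ATOH1 bound of 50 CPM CFAP73 was at −2.07 and IQCA1 at −0.30. WDR60 was lower at −3.31, with 31.6 ± 25.1 against 321 ± 84.9 CPM (SD, n = 5 plates). Of the 62 other motile genes 12 were lower and 2 higher, beside 15.7% and 12.7% of all genes.

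ATOH1 and OCM cross each other, so hair cell-like cells were also divided into 50 ATOH1-positive cells, 49 ATOH1-negative OCM-low cells and 83 ATOH1-negative OCM-high cells, beside the 94 supporting cell-like cells. After thinning, the median cell of these 4 ranges held 3 motile genes in supporting cell-like cells and 19, 17 and 16 in the hair cell-like ranges in that order. For transport genes the medians were 3, 9.5, 8 and 9. The 3 hair cell-like ranges lay close together and overlapped widely, and the step lay between them and the supporting cell-like cells.

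**Figure D5:**
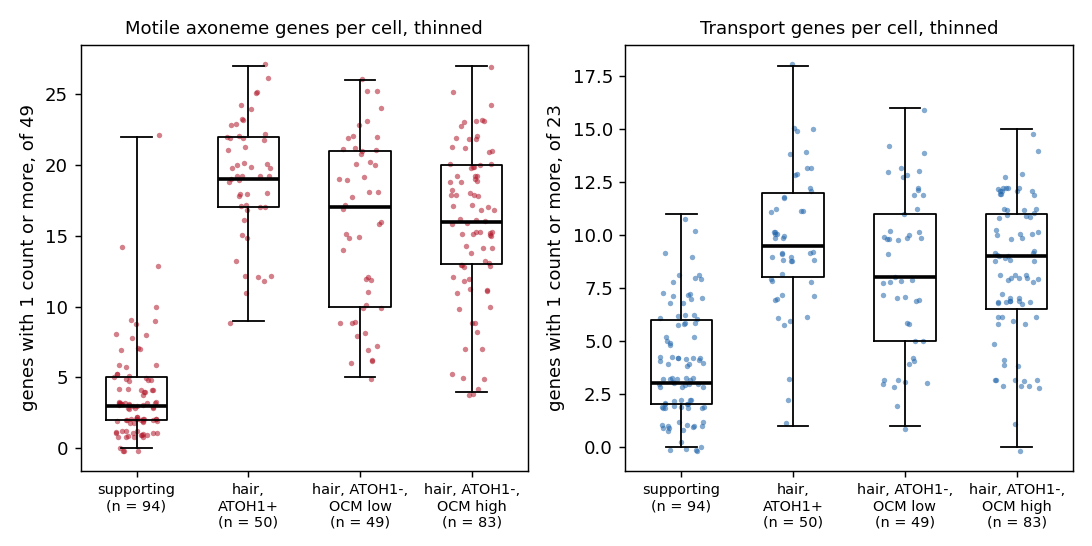
Motile axoneme genes (of 49) and transport genes (of 23) found per cell after thinning to 50000 counts, in supporting cell-like cells and 3 ranges of hair cell-like cells, with boxes for median and quartiles and whiskers to the lowest and highest cell. Medians are 3, 19, 17 and 16 motile and 3, 9.5, 8 and 9 transport genes.

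Single genes varied more between these ranges than the counts did. In the order supporting cell-like, ATOH1-positive, ATOH1-negative OCM-low and ATOH1-negative OCM-high, RSPH1 averaged 23.7, 718, 758 and 620.0 CPM, with hair cell-like ranges that did not differ beyond their spread over plates (SD 160.2, 144.2 and 147.9). IQCA1 averaged 4.35, 95.4, 301.3 and 147.9 CPM, and CEP131 0.135, 10.8, 51.5 and 20.7 CPM, both highest in ATOH1-negative OCM-low cells. CFAP221 was highest in that range as well, with 3.35, 12.3, 99.8 and 0.337 CPM and an SD of 158.5 CPM in it. IQCA1, CEP131 and CFAP221 were named for their ratios by ATOH1 or OCM in these same cells. Their order over the ranges follows in part from that choice and adds no separate support.

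Other members were highest elsewhere. IFT57 averaged 112.7, 257.97, 150.2 and 183.2 CPM and SPAG16 5.77, 49.2, 21.7 and 11.01 CPM, each highest in ATOH1-positive cells. IFT43 averaged 37.7, 49.2, 138.9 and 99.4 CPM, so that the ATOH1-positive cells stood nearest to the supporting cell-like cells. IFT57, SPAG16 and IFT43 were named for their ratios by ATOH1 in these same cells, so their order here follows in part from that choice. CEP41 averaged 746, 106.9, 181.8 and 116.8 CPM, and the 3 hair cell-like ranges lay together below the supporting cell-like cells.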

How the data were processed

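Single cells were read by full-length RNA sequencing of paired 150 base reads, per the labels' protocols. The deposited values are expected counts per gene, which the authors made with tools that the submitters' processing notes name as STAR, RSEM and FastQC. The sources used here do not give the build, annotation or versions. Of the values, 0.822% are not whole. Counts of 12 symbols on a pair of rows each were summed, and counts per cell ranged from 62846 to 1234012 over the 300 cells. Single cells were sorted into wells, doublets were not called, and whether some wells held a pair of cells was not tested.

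Cells with at least 1000 genes and 50000 counts were kept (24 removed), and counts were scaled to CPM. The 1000 most variable of 5128 clustering genes, an arbitrary share of all genes by name without members and listed genes, gave 20 principal components and 8 Ward clusters, and a cluster took the name of the list with the largest share of its markers at 10 CPM in at least 50% of cells, with at least 3 such markers. CPM were averaged within a plate and then over plates, and 1 CPM was added to each mean before the log2 ratio. No test was run. Fold bounds for genes at 0 use 3 counts over the group and do not cover which cells were drawn. Binomial and Poisson intervals (95%) cover counting error only. The binomial ones treat cells that share plates as independent, and the Poisson ones treat reads amplified without molecular identifiers as independent. Neither serves as a test between classes or ranges. The ratio was checked on simulated data. Python 3.11.15 was used with numpy 2.4.6, pandas 2.3.3, scipy 1.17.1 and matplotlib 3.10.9.

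The rule matched 116 symbols, of which 109 were measured, and 276 cells were kept, 182 hair cell-like and 94 supporting cell-like (132 of the former ATOH1-negative). The members and gene lists were chosen with earlier results of these data known. Named by rule were, per role, up to 8 members with the largest ratio at 10 CPM in at least 20% of cells of the higher class, the 2 most often detected in each class and those against the role's direction, and for OCM and ATOH1 up to 6 per direction that went the same way on every plate. The other genes in the text, such as DNAH12, FOXJ1 and WDR60, were named after their values were seen. Gene overlaps come from the RefSeq gene table of assembly GRCg7b, which may not be the authors' build, used for names and neighbours only. Promoter motifs and sequences were not analysed here, and some ciliary genes, the transition zone members among them, are not reported here. Alternatives tried were size factors, mean log2(CPM + 1), pseudocounts of 0.1 and 10 CPM, other filters on cells and genes, thinning to 50000 counts, each plate left out (with the cells clustered again, or with the classes kept), other clusterings and other bounds for OCM and ATOH1.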

Additional observations from a re-analysis of the deposited data

Results flagged for a closer look

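5 results stood out by fixed rules. Among 45 sets of 5 plate values, 4 had a highest or lowest plate whose gap to the next exceeded Dixon's 95% critical value, and chance alone picks out about 1 in 20 such sets. The median log2 ratio of the centrosome and basal body genes between OCM-high and OCM-low cells was 0.0 on plate 2 and 0.64 to 0.88 on the other plates. BBS10 averaged 96.2 CPM in supporting cell-like cells on plate 3 and 0 to 0.0882 CPM on the others, from 1 cell. DNALI1 averaged 135.5 CPM in supporting cell-like cells of plate 6 and 16.98 to 51.1 CPM on the other plates. IQCA1 averaged 287.6 CPM in hair cell-like cells of plate 6 and 117.2 to 163.5 CPM elsewhere.

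Among the 24 cells that were removed for low depth, which enter no comparison, RSPH1 reached 10 CPM in 4 (16.7%, exact 95% interval 4.74 to 37.4%). Those 24 cells had a median of 818 genes and 0 to 7 motile genes, with a median of 2.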

How the results depend on the processing

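Role medians, and for hair cell-like against supporting cell-like cells the counts of higher members, stayed within the spread over plates, or within 1.5 times for counts, in all but 16 values under other settings. With a plate left out 58 stayed and 2 moved, and all 30 stayed with the classes kept, an alternative chosen after seeing the data. The cause of those that moved was not tested. Hair cell-like against supporting cell-like, a pseudocount of 10 CPM gave medians of 1.07 (motile) and 0.63 (centrosome) with 10 centrosome genes higher. Mean log2(CPM + 1) gave 1.34 with 17 higher (transport) and 0.58 with 8 higher (centrosome). Cells of at least 2000 genes and 100000 counts gave 8 higher transport genes and a centrosome median of 0.67. By OCM, the transport median was 0.021 on mean log2(CPM + 1), −0.081 at a bound of 5000 CPM and −0.32 to −0.011 with a plate left out, where it was −0.011 without plate 3. By ATOH1, the motile median was 0.24 with size factors, 0.49 on mean log2(CPM + 1) and −0.035 at a bound of 50 CPM, and the transport median 0.47 and −0.22 under the last 2. The ATOH1 centrosome median ran from −0.25 to 0.28 with a plate left out, and was −0.25 without plate 3, and it was −0.085 at a bound of 50 CPM. Of the 33 centrosome genes 8 were higher by OCM, but 1 on mean log2(CPM + 1), 4 at 5000 CPM and 12 in ATOH1-negative cells. Among single genes, IFT88 was −0.76, BBS10 1.36 and CEP76 3.17 in the deeper cells, CEP76 0.18 on mean log2(CPM + 1), BBS10 −3.80 to 1.14 with a plate left out, and SPAG16 by ATOH1 −0.25 within OCM-low cells. Of the other values, 820 stayed, 5 reversed and the rest moved, and with a plate left out 19 moved and 1 reversed, or 5 and 1 with the classes kept, when BBS10 was again 1.14 without plate 3.

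Plates may hold cells of the same pooled epithelia, so their spread may be technical. Cells of few genes limit what can be seen of rare transcripts, and a gene at 0 counts was not detectable at this depth. Gene lengths and the build are not known here, so levels were not compared between genes. The SD over plates rests on 5 values, and in ATOH1-positive cells on 8 to 12 cells per plate. No paired test was run, since animals are not identified in the labels and plates are not stated to be separate experiments. Each plate holds both classes, so the ratios within plates and the values by plate set them side by side. Whether plate means overlap does not use that pairing.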

Other observations

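Among the ciliary genes outside the naming rule, a few were at 0 counts in all 94 supporting cell-like cells. These met the bound of 5 cells only through hair cell-like cells. At the lower depth of supporting cell-like cells, 0 counts say nothing of cells that express the gene. AK9, an adenylate kinase linked to cilia, averaged 38.7 CPM in hair cell-like cells, and UNC119, a carrier of lipid-modified ciliary proteins, 50.4 CPM. By counts alone their fold bounds were 406 and 529.5, which do not cover which cells were drawn. TMEM67 and MKS1, of the transition zone complex, had log2 ratios of 2.58 and 2.39, and TMEM237 of the same complex lay the other way at −2.74. NIN, which anchors microtubules at the mother centriole, was at −2.62, with supporting cell-like plates that ran from 0 to 304 CPM. SCLT1, of the distal appendages, averaged 149.6, 102.5, 75.5, 93.2 and 161.4 CPM by plate in hair cell-like cells and 0, 17.7, 16.8, 19.2 and 40.04 CPM in supporting cell-like cells, without overlap and at a log2 ratio of 2.57. RFX3, a transcription factor of ciliary genes in many cell types, averaged 182.3 ± 70.6 and 205.1 ± 109.5 CPM (SD, n = 5 plates), a log2 ratio of −0.17.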
